A study of Rattus norvegicus with 12 samples.

Results

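The miRNAs rno-miR-25-3p, rno-miR-92a-3p, rno-miR-92b-3p and rno-miR-363-3p carry the same seed, the stretch at the 5′ end by which a miRNA recognizes its targets. They were taken from the array by their names, and these 4 members were measured by 10 of its 1806 probes, out of 758 rat miRNAs in all. The members were chosen by their shared seed together with measured values of the same arrays, since miR-92b-3p had been seen to be lower in MI than in Sham rats. MiR-92a-3p entered as the miRNA to which the study's RT-PCR values were normalized. For that reason the MI against Sham values of all members, and every comparison of miR-92b-3p, are given here as a description, without a test.

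All rats were male Wistar rats. In the MI group a ligature was tied around the left anterior descending artery of the heart, the rats were kept for 4 weeks to develop chronic heart failure, and physiological saline was then given i.p. each day for 28 days. The YQFM group underwent the same ligation and received Yiqifumai injection, a preparation of botanical drugs, at 5 mg/kg/d i.p. for 28 days. The Sham group had the operation without the ligature and received saline. MiRNA was extracted from the left ventricle near the infarction area, and 4 rats per group were measured with 1 Agilent single-color array per rat, so that replicates are separate rats.

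A miRNA acts by guiding a silencing complex to messenger RNAs with sites that pair with its seed, mostly in their 3′ untranslated part, so that miRNAs with the same seed can share many targets. The members come from separate genes. MiR-25 lies in the miR-106b/25 cluster, miR-92a is made from the miR-17/92 cluster and also from a copy in the cluster of miR-106a and miR-363, miR-363 belongs to the latter, and miR-92b has no other miRNA gene close by. The miR-17/92 cluster is known for its role in cell proliferation, heart development and blood vessels, and miR-92a has been studied as an inhibitor of vessel growth in ischemic tissue.

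The mature sequences, from RefSeq on the GRCr8 assembly, are shown because the members can be told apart on an array only by the bases beyond the seed. Capitals mark the seed, bases 2 to 8 from the 5′ end, which is identical in all 4.

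rno-miR-25-3p: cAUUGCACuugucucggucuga

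rno-miR-92a-3p: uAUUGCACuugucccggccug

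rno-miR-92b-3p: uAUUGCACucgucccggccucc

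rno-miR-363-3p: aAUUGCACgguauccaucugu

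MiR-25-3p lies at chr12:22156652-22156673 on the minus strand, within the bounds of Mcm7, a protein-coding gene for a subunit of the replicative helicase. MiR-92a-3p has 2 genes with the same mature sequence, Mir92a1 at chr15:98588602-98588622 on the plus strand and Mir92a2 at chrX:137342945-137342965 on the minus strand, so that its signal cannot be assigned to either. MiR-92b-3p lies at chr2:176931663-176931684 on the minus strand. MiR-363-3p lies at chrX:137342788-137342808 on the minus strand, next to Mir92a2. Exons and introns were not analysed here. Of 693 rat mature miRNA names in the RefSeq table, 5 had this seed, the fifth being miR-32-5p.

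Counted from the 5′ end of miR-92a-3p, miR-92b-3p differed from it at U10C and G21C and was otherwise the same over 19 of 21 bases, with 1 more base at its 3′ end. MiR-25-3p differed at U1C, C14U and C18U, and miR-363-3p at 11 positions. The probes show how closely the array could separate the pair that differs least. Capitals mark the longest run that is also complementary to the other miRNA of the pair, miR-92a-3p or miR-92b-3p.

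16-base probe of miR-92a-3p: cAGGCCGGGACaagtg

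17-base probe of miR-92a-3p: cAGGCCGGGACaagtgc

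10-base probe of miR-92b-3p: ggAGGCCGGG

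11-base probe of miR-92b-3p: ggAGGCCGGGA

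12-base probe of miR-92b-3p: ggAGGCCGGGAC

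13-base probe of miR-92b-3p: ggAGGCCGGGACg

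The 4 probes of miR-92b-3p paired with its 3′ end only, from base 10, 11, 12 or 13 to base 22, and shared runs of 8 to 10 bases with miR-92a-3p. The miR-92a-3p probes reached from base 5 or 6 to base 21 and shared a run of 10 bases with miR-92b-3p. None of these probes spanned the seed in full. Over all probes of the array the length ran from 10 to 23 bases with a median of 16, and 262 of them (14.5%) had at most 13 bases, as all those of miR-92b-3p did. Cross-hybridization between miR-92a-3p and miR-92b-3p was not tested.

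The 12 arrays were spread unevenly over 3 slides. Slide 1 held MI replicates 1 to 3, slide 2 held MI replicate 4 and YQFM replicate 1, and slide 3 held the 4 Sham arrays and YQFM replicates 2 to 4. MI and Sham arrays were never on the same slide. The source names of MI replicate 4 and Sham replicate 4 give Sham and YQFM, respectively, against their group entries, which were used here. The correlation of log2 signals between arrays was 0.95 to 0.99 over 66 pairs. The heart miRNAs miR-1-3p, miR-133a-3p and miR-499-5p were detected on all 12 arrays, whereas the heart-specific miR-208a-3p was detected on 1 Sham array. No miRNA of the lists taken as markers of cardiomyocytes (3 tested of 4), erythrocytes (2 of 3), leukocytes (2 of 4), fibroblasts (4 of 4) or endothelial cells (2 of 2) passed the test in any comparison, beside 7.22% of all tested miRNAs in MI against Sham and 0% in the other comparisons. The log2 ratios of the 4 fibroblast miRNAs in MI against Sham, which did not pass, were all above 0, at 0.56 to 0.79 with a median of 0.67 beside -0.04 over all tested miRNAs. The liver miRNA miR-122-5p was detected on no array.

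Signals below are intensities scaled to a common 75th percentile of each array, on a linear scale, and detection of a probe meant that over 50% of its spots stood well above background. MiR-25-3p and miR-92a-3p were detected on all 12 arrays, miR-92b-3p on 11 and miR-363-3p on none. Thus 3 of the 4 members could be tested, among 263 miRNAs tested in all. Since bulk tissue was measured, fewer cells that express a miRNA and less of it per cell cannot be told apart.

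**Figure D1:**
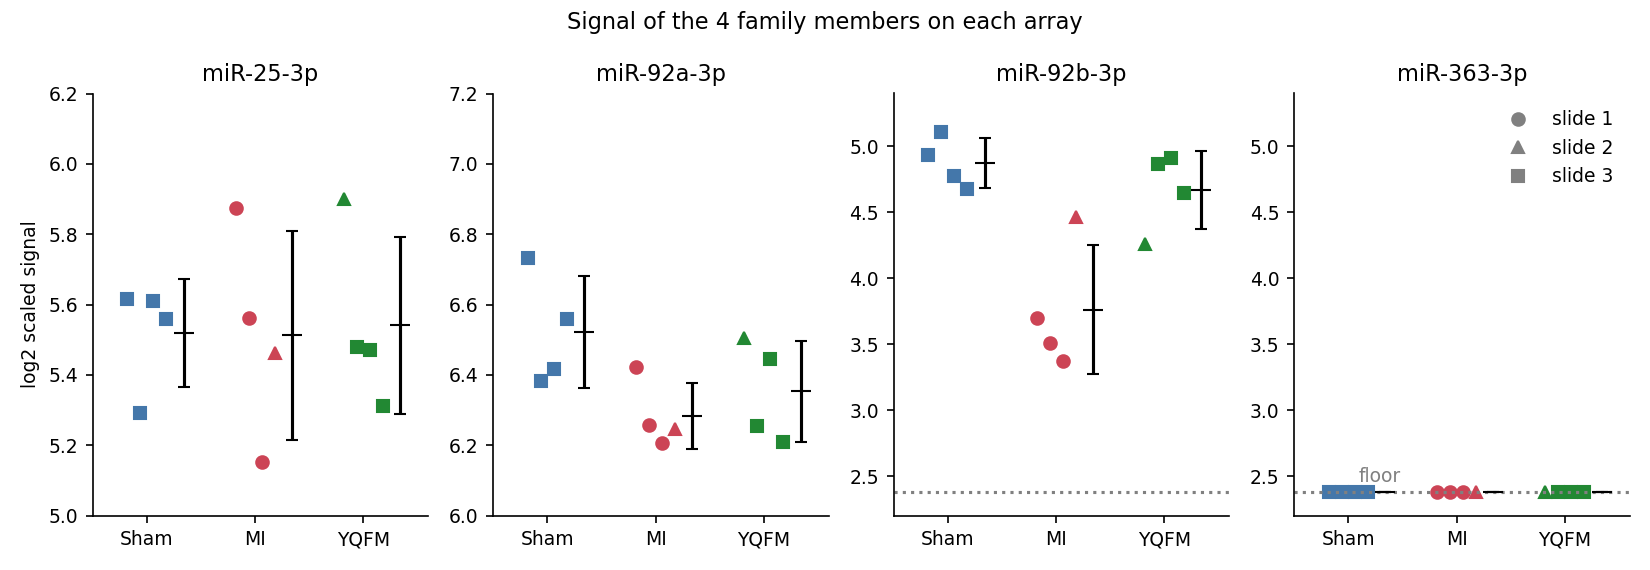
Log2 scaled signal of each member on each array (points, with shapes for the slide), with the mean and SD of 4 rats per group (black bars); the dotted line is the floor of 2.38, and the vertical ranges differ between the first pair of panels and the others. The MI arrays of miR-92b-3p lay below its Sham arrays, miR-25-3p and miR-92a-3p overlapped between the groups, and miR-363-3p was at the floor on every array.

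MiR-92b-3p was lower in every MI rat than in every Sham rat and its mean in the YQFM rats lay between them. In the Sham rats the scaled signal of miR-92b-3p was 30.6, 34.4, 27.3 and 25.5. In the MI rats it was 13, 11.4, 10.4 and 22.1, the value of 10.4 being from the array on which it was not detected. In the YQFM rats it was 19.2, 29.1, 30.1 and 25.1. MI replicate 4 and YQFM replicate 1, the arrays of slide 2, were the highest and the lowest of their groups, and without either of them the MI and YQFM rats would not have overlapped.

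The Sham rats averaged 29.5 ± 3.93 (SD, n = 4), the MI rats 14.2 ± 5.36 and the YQFM rats 25.9 ± 4.95. On the log2 scale MI differed from Sham by -1.11 (SE 0.230), a ratio of 0.463, which is a description since the contrast had chosen the miRNA. Over all miRNAs 19 of 263 passed an adjusted p of 0.05 in that comparison (7.22%), of which 18 were lower in MI (6.84%), and 31 (11.8%) had every MI array below every Sham array. That count of 19 became 0 with the slide as a fixed or random block, and 58 without MI replicate 4 and Sham replicate 4.

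YQFM against MI gave a log2 ratio of 0.91 (SE 0.230) for miR-92b-3p, a ratio of 1.88. The low MI arrays that led to the choice of miR-92b-3p also enter here, so this value too is a description and is given without a test. It was 1.14 without MI replicate 4 and 1.05 without YQFM replicate 1. No miRNA passed an adjusted p of 0.05 by limma in that comparison (0%), while 50 had an unadjusted p under 0.05. Exact two-sided permutation tests of 4 arrays against 4, used for single values below, cannot give a p under 0.0286.

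YQFM and Sham rats overlapped for miR-92b-3p. The log2 ratio of YQFM to Sham was -0.20 (SE 0.230), given without a test since the Sham arrays had also entered the choice. In this comparison too 0 of 263 miRNAs passed (0%), with 15 at an unadjusted p under 0.05. The order of the group means was thus Sham, YQFM and MI, and the difference of the first pair in that order was smaller than its SE. This order is a description, since the MI and Sham arrays had entered the choice.

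The signal of miR-92b-3p also separated by slide. It was 10.4 to 13 on slide 1, 19.2 to 22.1 on slide 2 and 25.1 to 34.4 on slide 3, without overlap. On slide 2 the MI array, at 22.1, was above the YQFM array, at 19.2, which is the opposite order to that of the group means. That MI array is replicate 4, whose source name gives Sham. On slide 3 the Sham arrays averaged 4.87 and the 3 YQFM arrays 4.81 on the log2 scale. They differed by -0.06, given without a test since the Sham arrays had entered the choice. Such a rise from slide 1 to 2 to 3 without overlap was seen for 9 of 263 miRNAs (3.42%), and the opposite order for 0.

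With the slide as a fixed block the log2 ratio for MI against Sham was 0.14 (SE 0.272) and that of YQFM to MI was -0.20 (SE 0.239). The blocked value of YQFM to MI rests on the single MI and the single YQFM array of slide 2. That of MI against Sham is indirect, through these arrays and the YQFM and Sham arrays of slide 3. Both use MI replicate 4, whose source name gives Sham. With the slide as a random block the ratios were -0.64 (SE 0.307) for MI against Sham and 0.48 (SE 0.278) for YQFM to MI. For miR-92b-3p, therefore, both contrasts with MI changed sign with the fixed block and kept it with the random block. Since no slide held MI and Sham arrays together, that comparison has no value within a slide.

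**Figure D2:**
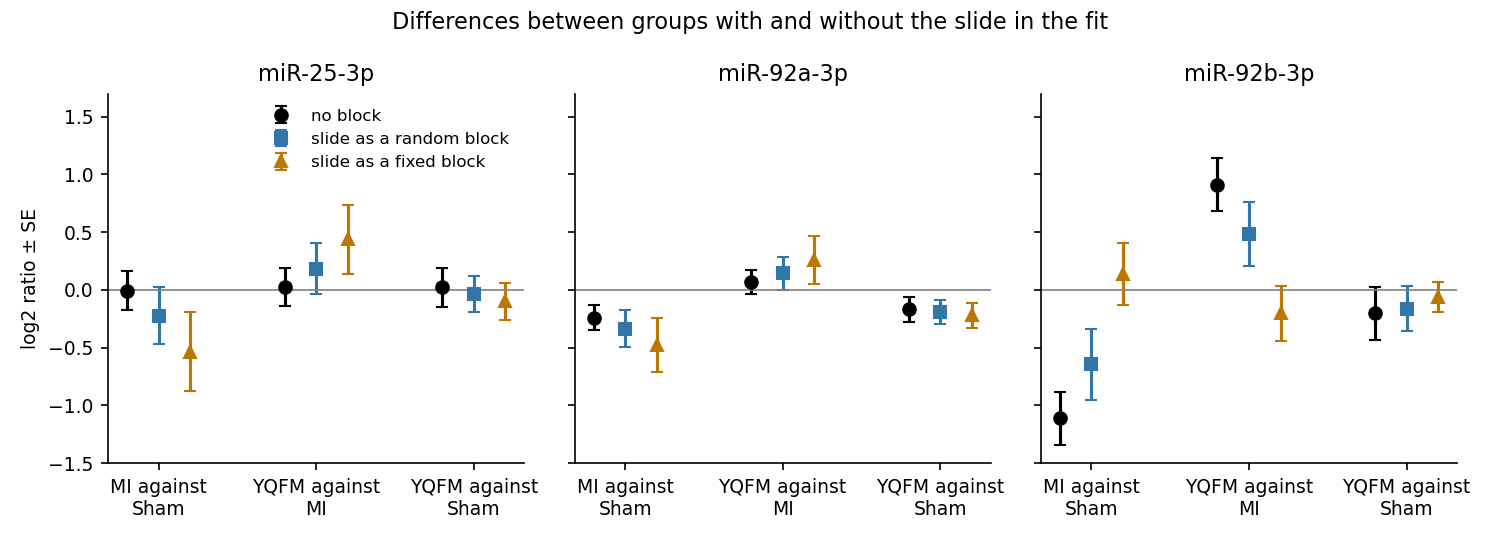
Log2 ratio and SE of the tested members in the comparisons, from the fit without a block (black circles), with the slide as a random block (blue squares) and as a fixed block (orange triangles). The MI against Sham ratio of miR-92b-3p went from -1.11 to 0.14 with the fixed block, and its YQFM against Sham ratio stayed within 1 SE of zero in each fit.

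All 4 probes of miR-92b-3p gave the same order of groups. MI against Sham gave log2 ratios of -1.01 for the 10-base probe, -0.95 for the 11-base probe, -1.10 for the 12-base probe and -1.41 for the 13-base probe. The signal of the 13-base probe was 6.91 to 24.8 in MI and 28 to 38.4 in Sham. The YQFM to MI ratios were 0.77 to 1.21. Each probe on its own rose from slide 1 to slide 2 to slide 3 without overlap. These probes were detected on 10, 11, 9 and 9 arrays in order of length, and in MI on 2, 3, 1 and 1 of 4, so that the sizes of these ratios cannot be ranked. As a description, log2 signals of any 2 of them correlated over the 12 arrays with a Pearson r of 0.88 to 0.96, all measuring the same RNA.

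**Figure D3:**
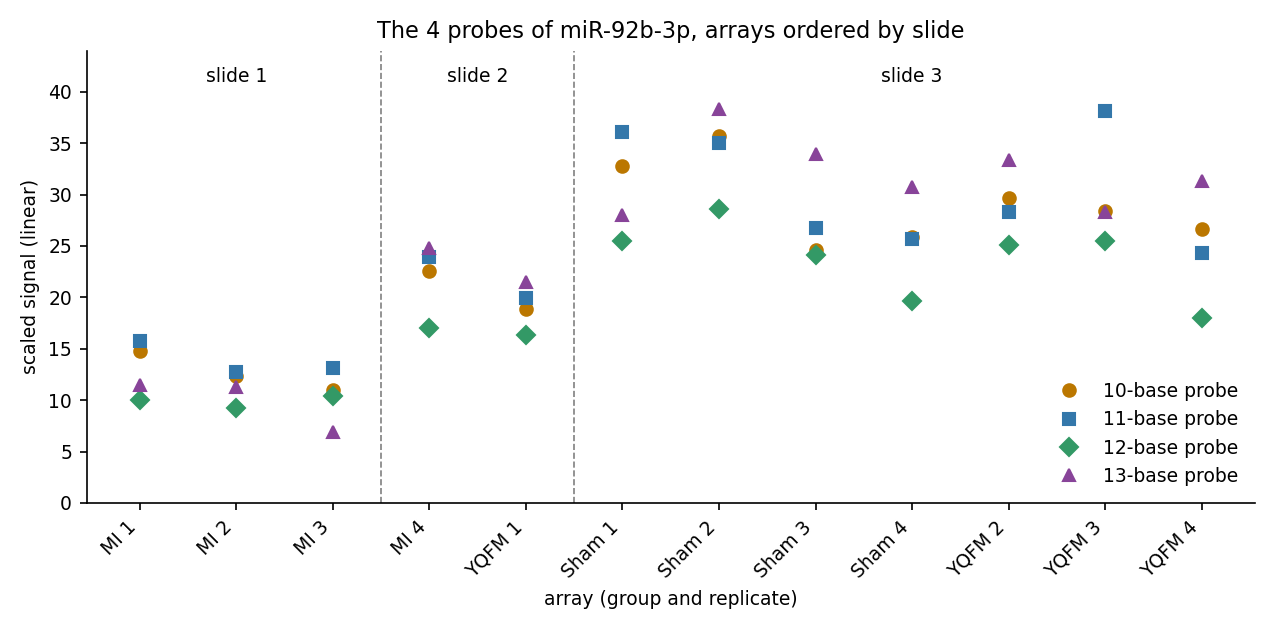
Scaled signal of each probe of miR-92b-3p on the 12 arrays, ordered by slide. Every probe was lowest on slide 1, where the 13-base probe fell to 6.91, and each was 16.4 to 24.8 on the arrays of slide 2.

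MiR-92a-3p, the RT-PCR reference, varied less between rats than most miRNAs of the array. Its scaled signal was 106, 83.5, 85.5 and 94.2 in the Sham rats. It was 85.7, 76.6, 73.9 and 75.9 in the MI rats, and 90.8, 76.3, 87.2 and 74.0 in the YQFM rats. The groups overlapped, although 3 of the 4 MI arrays lay below the lowest Sham array.

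MI differed from Sham by -0.24 on the log2 scale (SE 0.105), a ratio of 0.847, given as a description. YQFM against MI gave 0.07 (SE 0.105, limma adjusted p = 0.841, exact permutation p = 0.40). YQFM against Sham gave -0.17 (SE 0.105, limma adjusted p = 0.664, exact permutation p = 0.20), and -0.22 between the arrays of slide 3 (exact permutation p = 0.171). With the 4 against 3 arrays of slide 3 a permutation test cannot give a p under 0.0571. In fits with the slide as a fixed block the ratio of MI to Sham was -0.48 (SE 0.232). The 16-base and 17-base probes, both detected on 12 arrays, gave -0.25 and -0.24 for MI against Sham. For YQFM against MI they gave 0.21 and 0.05, and for YQFM against Sham -0.04 and -0.18. The 16-base probe was 14.5 to 15.9 on slide 1, below its 17.8 to 19.6 on slide 2 and 16.3 to 20.9 on slide 3.

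A reference is read by its differences between groups, given above (-0.24, SE 0.105, for MI against Sham), and by its spread. The SD of log2 signal of miR-92a-3p over the 12 arrays was 0.161, the 22nd smallest of the 201 miRNAs detected on all arrays, whose median SD was 0.253. Within groups its pooled SD was 0.136, which ranked 21 of 201. Its rank moved between 6 and 50 of 201 under other scalings and background corrections, being 42 without scaling, 6 with the 75th percentile over all miRNAs, 12 with quantile normalization and 50 after normexp correction.

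**Figure D4:**
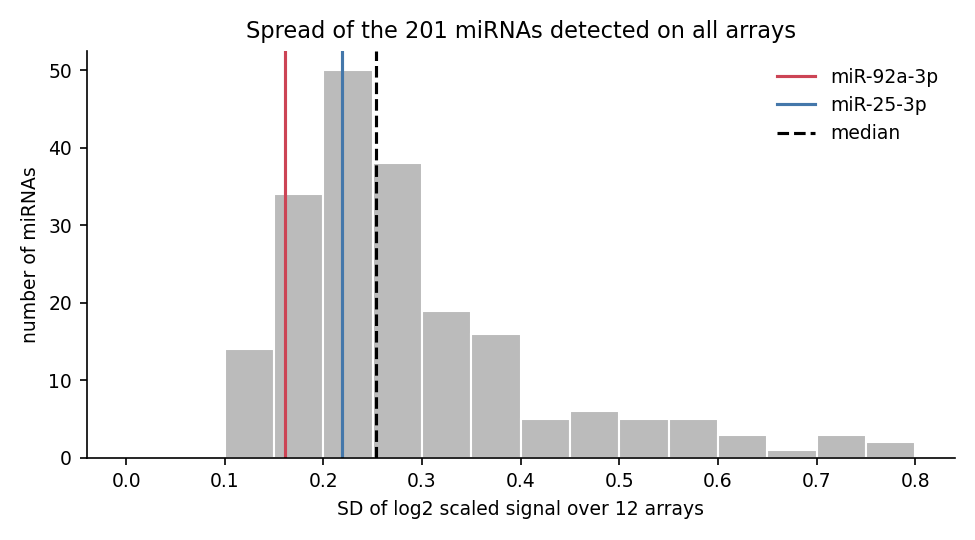
Histogram of the SD of log2 scaled signal over 12 arrays for the 201 miRNAs detected on all arrays, with lines at miR-92a-3p (0.161), miR-25-3p (0.219) and the median (0.253). Both members lay in the lower part of the distribution.

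MiR-25-3p overlapped between all groups, and its mean differences were smaller than their SE. Its scaled signal was 49.0, 39.2, 48.9 and 47.1 in the Sham rats. It was 58.6, 47.3, 35.6 and 44.1 in the MI rats, the lowest and the second highest of all arrays falling in that group, and 59.8, 44.6, 44.4 and 39.7 in the YQFM rats.

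MI against Sham gave a log2 ratio of -0.006 (SE 0.166). YQFM against MI was 0.03 (SE 0.166, limma adjusted p = 0.960, exact permutation p = 0.857) and YQFM against Sham was 0.02 (SE 0.166, limma adjusted p = 0.975, exact permutation p = 0.914). Between the arrays of slide 3 the latter was -0.10 (exact permutation p = 0.40). With the slide as a fixed block MI against Sham was -0.54 (SE 0.341), which again turns on the arrays of slide 2. Its SD over 12 arrays, 0.219, ranked 69 of 201, and its pooled SD within groups, 0.242, ranked 102 of 201. The 18-base probe was detected on 12 arrays, and the 17-base probe on 1.

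MiR-363-3p was not detected in any rat. Its scaled signal after background subtraction was negative on every array, from -3.62 to -0.82, and neither the 16-base nor the 17-base probe was well above background anywhere. No ratio is given for it, since both sides of each comparison were at the floor of 5.20.

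Relative to miR-92a-3p on the same array, as the study's RT-PCR normalization would express them, the other tested members gave the following. The difference of log2 signals between miR-92b-3p and miR-92a-3p changed by -0.87 (SE 0.282) from Sham to MI. On slide 1 this difference was -2.84 to -2.72. In MI replicate 4, whose source name gives Sham, it was -1.78 and fell within the Sham range of -1.89 to -1.28. From MI to YQFM it changed by 0.84, given without a test since the MI arrays had led to the choice of miR-92b-3p. YQFM against Sham changed by -0.03, also given without a test since the Sham arrays had entered that choice. For miR-25-3p the change was 0.23 (SE 0.128) from Sham to MI. It was -0.04 for YQFM against MI (unadjusted exact permutation p = 0.80) and 0.19 for YQFM against Sham (unadjusted exact permutation p = 0.114). Neither tested difference of miR-25-3p had an exact permutation p under 0.05, and with 4 against 4 arrays that p cannot go below 0.0286. Dividing by miR-92a-3p thus took 0.24 off the MI against Sham difference of miR-92b-3p and added the same to that of miR-25-3p.

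**Figure D5:**
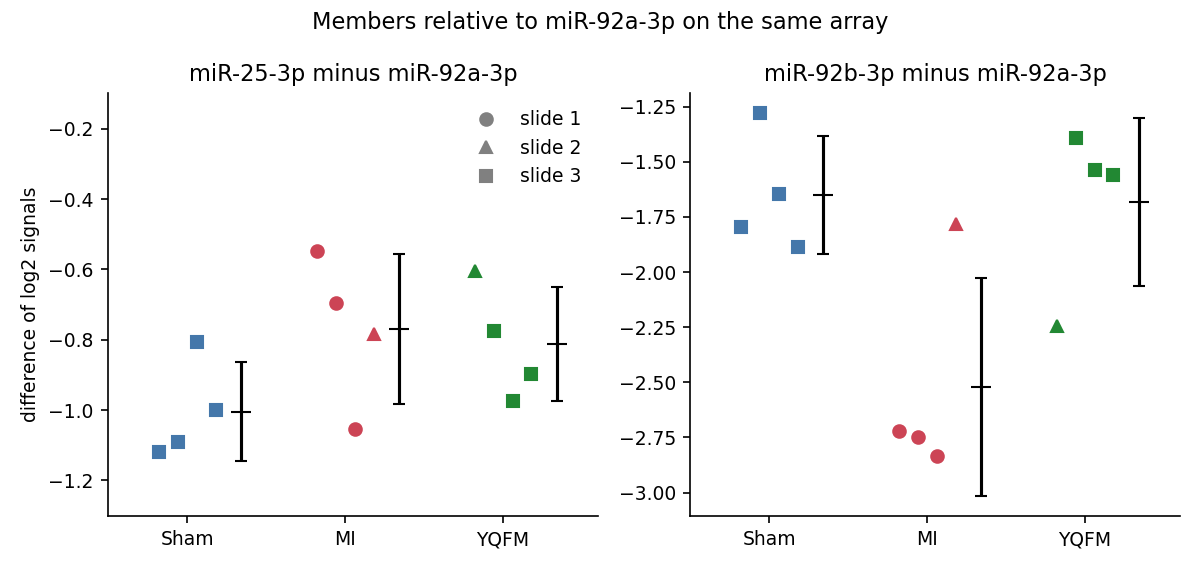
Difference of log2 signals between a member and miR-92a-3p on the same array (points, with shapes for the slide), with the mean and SD of 4 rats per group. In the panel of miR-92b-3p the MI arrays of slide 1 lay between -2.84 and -2.72, and the slide 2 array of that group lay within the Sham range.

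As a description over the 12 arrays, which share slides and scaling, the Pearson r of log2 signal was 0.54 between miR-25-3p and miR-92a-3p, 0.39 between miR-92a-3p and miR-92b-3p and -0.09 between miR-25-3p and miR-92b-3p. After subtraction of the group means the same values were 0.71, -0.17 and -0.22.

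The cluster partners were given from lists named for each locus. In the miR-106b/25 cluster, miR-106b-5p and miR-93-5p, which share another seed and are made from the same primary transcript as miR-25, were tested among 5 names, and 0 passed in any of the comparisons, beside 7.22% of all tested miRNAs in MI against Sham and 0% in the others. For MI against Sham their log2 ratios were -0.07 and -0.08, with a median of -0.08 beside -0.04 over all tested miRNAs. The scaled signal of miR-106b-5p was 28.8 to 42.7 in Sham, 27.5 to 43.7 in MI and 26.6 to 37.8 in YQFM, and the groups overlapped.

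In the miR-17/92a-1 cluster 3 of 11 names were tested, miR-17-5p, miR-20a-5p and miR-19b-3p, and 0 passed in any comparison, beside the same shares of all tested miRNAs. The last has genes both in this cluster (Mir19b1) and in that of miR-106a and miR-363 (Mir19b2), so that its signal cannot be assigned to either. MiR-19b-3p, whose seed differs from those of the other miRNAs tested in that cluster, was 33.7 to 42.0 in Sham, 21.0 to 34.4 in MI and 24.5 to 31.5 in YQFM, so that every YQFM array was below every Sham array, as for 16 of 263 miRNAs (6.08%). Its log2 ratio was -0.44 for MI against Sham (SE 0.156, limma adjusted p = 0.0861) and -0.44 for YQFM against Sham (limma adjusted p = 0.452), in both of which it did not pass. MiR-17-5p gave 0.01 and miR-20a-5p -0.06 for MI against Sham. The list's median was -0.06 in that comparison, -0.14 for YQFM against MI beside -0.01 over all tested miRNAs, and -0.22 for YQFM against Sham beside -0.11.

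The list for the cluster of miR-106a and miR-363 left out miR-92a-3p and miR-19b-3p, which have genes there as well as elsewhere. Of its names 5 of 7 were on the array, and miR-20b-5p alone was tested. For MI against Sham miR-20b-5p gave a log2 ratio of -0.04, with an adjusted p of 0.936 by limma. It was detected on 11 arrays and did not pass in the other comparisons either (limma adjusted p of 0.701 and 0.689). The opposite arms miR-25-5p, miR-92a-1-5p, miR-92a-2-5p, miR-92b-5p and miR-363-5p, which are cut from the same hairpins, were detected on no array, as was miR-32-5p, the remaining rat miRNA with the seed. The hairpin of miR-92b therefore offered no second readout of its difference.

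The miRNAs whose log2 signal followed that of miR-92b-3p most closely over the 12 arrays, of 199 compared, were miR-1249 (Pearson r = 0.96), miR-296-5p (r = 0.95) and miR-1199-5p (r = 0.93). All had their lowest signals on slide 1, which for miR-1249 were 153 to 214 beside 255 to 305 on slide 2 and 297 to 429 on slide 3. For miR-1199-5p slides 1 and 2 overlapped, at 17.1 to 22.8 and 21.5 to 24.5. Those nearest to miR-92a-3p were miR-210-3p (r = 0.90), miR-1b (r = 0.86) and miR-378b (r = 0.85). Those nearest to miR-25-3p were miR-352 (r = 0.94), miR-15b-5p (r = 0.91) and miR-26b-5p (r = 0.91). These are descriptions over arrays that share slides and scaling.

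MiR-92b-3p was also among the miRNAs richest in G and C, at 63.6%, which ranked 37 of the 239 tested miRNAs with a sequence in the RefSeq table, beside 57.1% for miR-92a-3p, 50% for miR-25-3p and a median of 52.2%. Across these miRNAs, which are not independent replicates, the Spearman rho between GC content and the log2 ratio was -0.24 for MI against Sham, 0.09 for YQFM against MI and -0.31 for YQFM against Sham, and -0.12 for the latter within slide 3. The part of GC content, probe length or the slide in the values of miR-92b-3p was not tested beyond the blocked fits.

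The summed signal of the fibroblast list (miR-21-5p, miR-199a-3p, miR-199a-5p and miR-214-3p) was 380 to 561 in Sham, 473 to 1104 in MI and 488 to 1543 in YQFM. That of the erythrocyte list was 198 to 251, 162 to 214 and 165 to 198. Most of it was miR-486, at 195 to 248, 159 to 204 and 162 to 184. MiR-451-5p was detected on 6 of the 12 arrays, with a log2 ratio of -0.13 (SE 0.610) for MI against Sham, and miR-144-3p on no array. Red cells are known to contain miR-92a. The part of fibroblasts or red cells in the member values was not tested.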

How the data were processed

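The authors extracted images with Agilent Feature Extraction 10.7.1.1, and the deposited scanner output holds spot intensities that were detrended and background-subtracted but not scaled between arrays. Their processed table was found to hold, for each miRNA, the summed intensity of probes above 3 times their error, and 0.1 otherwise, also unscaled.

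Control and outlier spots were left out. Intensities were averaged over spots and probes and divided by each array's own 75th percentile, taken over 201 miRNAs that every array detected. Values under 5.20 (2.38 on the log2 scale) were set to that floor. The 263 miRNAs detected on at least 2 of 4 arrays of a group were compared in 1 linear model of the 12 arrays, adjusted by Benjamini-Hochberg (limma 3.58.1, R 4.3.3), at an adjusted p of 0.05, and checked on simulated data. Single values were compared by exact two-sided permutation tests (scipy 1.17.1). Tables and figures used Python 3.11.15, pandas 2.3.3 and matplotlib 3.10.9.

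The members, the lists of cluster partners and markers, and the tests were chosen with earlier results of these data known. The miRNAs named were the members, their cluster partners and opposite arms, others with the seed, and, for each member above the floor on at least 10 of 12 arrays, the 3 most similar miRNAs detected on all arrays. Sequences and positions came from RefSeq tables on GRCr8, in which 685 of 758 miRNAs were found by name, and probes from the array files. Alternatives concerned the background correction, signal, scaling, floor, filter, probes, arrays, blocks and test. The number of arrays limits the precision, and 471 miRNAs were detected on no array. RT-PCR values were not analysed here.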

Additional observations from a re-analysis of the deposited data

Results flagged for a closer look

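Among the members, partners and marker miRNAs, 66 sets of 4 rats were examined for a rat far from the other 3 of its group, by the gap to the nearest rat over the range of the group, against Dixon's critical value. Chance gives about 1 in 20 such sets if they are independent, and 7 were found. The sets share rats, so they are not independent, and these 7 are not separate events. None of the 7 was a family member or a cluster partner. YQFM replicate 1, from slide 2, stood above the other YQFM rats for the fibroblast list, at gaps of 0.925 for miR-21-5p, 0.888 for miR-199a-3p, 0.843 for miR-199a-5p and 0.939 for miR-214-3p. For miR-21-5p its log2 signal was 9.34 beside 7.82 to 7.93 in the others. Sham replicate 2 was low for miR-21-5p (gap 0.951), MI replicate 3 was low for miR-199a-5p (gap 0.901), and MI replicate 1 was high for miR-126a-3p (gap 0.982).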

How the results depend on the processing

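The count of miRNAs that passed in MI against Sham, 19, was 5 after normexp correction, 3 with the 75th percentile over all miRNAs, 2 with the brightest probe, 7 for miRNAs detected on all arrays, 6 with the methods' t-test, 10 with a replicate block and 58 without both arrays of conflicting source names. It was 0 with the total gene signal, without scaling, with quantile normalization, with the authors' processed values and with the slide as a fixed or random block. For YQFM against MI the count of 0 became 1 after normexp correction, 1 with the brightest probe and 28 without both arrays of conflicting source names. Leaving out each array in turn gave 4 to 62 (62 without MI replicate 4, 4 without MI replicate 2 or 3) and 0 to 28 (28 without MI replicate 4, 23 without YQFM replicate 1). For YQFM against Sham it was 0 throughout. Replicate numbers did not pair the rats, since deviations of same-numbered arrays correlated at -0.64 to 0.34. The replicate block changed no other call.

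For miR-92b-3p, MI against Sham was -0.20 after normexp correction with an offset of 50, 0.14 and -0.64 with the slide as a fixed and as a random block, and -0.41 with MI replicate 4 as the only MI array, an alternative chosen after seeing the data. YQFM against MI was 1.14 without both arrays of conflicting source names, -0.20 with the fixed block and within slide 2, and 0.21 against MI replicate 4 alone. Without single arrays its ratios were -1.34 to -0.98, 0.78 to 1.14 and -0.28 to -0.06 in the order MI against Sham, YQFM against MI and YQFM against Sham.

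For miR-92a-3p, MI against Sham was -0.059 with the total gene signal, 0.012 with the brightest probe and -0.48 with the fixed block. YQFM against MI was -0.080 with the brightest probe, -0.025 with quantile normalization and 0.26 within slide 2. Without single arrays its ratios were -0.29 to -0.17, 0.02 to 0.12 and -0.22 to -0.10. The brightest probe moved the median of all tested miRNAs in MI against Sham from -0.04 to 0.14, and scaling to miR-92a-3p moved it to 0.18.

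For miR-25-3p, MI against Sham was 0.25 with the brightest probe and -0.54 with the fixed block. YQFM against MI was -0.094 with the total gene signal, -0.042 with scaling to miR-92a-3p, -0.11 with the brightest probe and 0.44 within slide 2. YQFM against Sham was -0.056 for the 17-base probe (detected on 1 of 12 arrays, so that this is a difference of signals mostly not above background), -0.10 with the fixed block and within slide 3, and -0.038 with the random block. Without single arrays its ratios were -0.13 to 0.11, -0.092 to 0.15 and -0.10 to 0.10, crossing zero in each comparison. Its tested differences passed under no alternative. Where a sign or call changed, the cause was not tested.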

Other observations

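The software's own total gene signal of miR-25-3p fell into separate ranges that the probe signals did not show. It was 574 to 999 on 6 arrays (MI replicates 2 and 3, Sham replicates 1 and 2, YQFM replicates 2 and 3) and 49.4 to 74.6 on the other 6. On the first 6 arrays only 1 of its probes exceeded 3 times its error, and the total was 18.4 to 21.0 times the sum of such probes. On the others both probes did, and the total equalled their sum. Totals more than 5 times the probe sum occurred in 452 of 3420 values above 3 errors, over 111 miRNAs. On that signal the SD of miR-25-3p over 12 arrays was 2.02, rank 196 of 201, beside 0.219 here.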
